A study of Mus musculus with 6 samples.

Results

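The respiratory chain of mitochondria was followed through 88 genes of 31709 gene names on the array, in the retina of mice that had received titanium dioxide nanoparticles. The genes were taken by name: those that begin with Nduf, Uqcr or Atp5, those that begin with Cox and a digit from 4 to 8, and Sdha, Sdhb, Sdhc and Sdhd. They had 118 probes, and 87 of the 88 genes were measured; Cox8c did not stand above background often enough. By their usual assignment 36 belonged to complex I, 4 to complex II, 7 to complex III, 19 to complex IV, with Cox8c among these, and 14 to complex V. The other 8 fitted the naming rule without being subunits of the 5 complexes, and these are given apart.

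The mice were male C57BL/6 animals aged 8 weeks, and their retinas were taken 7 days after the nanoparticles, or phosphate-buffered saline (PBS), had been placed in the vitreous body of the eye. The 3 groups of 12 mice received the nanoparticles at the dose labelled PTC, the nanoparticles at 10 times that dose, labelled 10PTC, or PBS alone. Each of the 6 arrays compared, in 2 colours, RNA of 4 pooled retinas from treated eyes, in Cy5, with PBS control RNA, in Cy3, and each dose had 3 arrays. Values are log2 ratios of treated over PBS control, so that -1 is a fall to 0.5 times the control, and errors are the SD over the 3 arrays of a dose. The pools hide the spread between single animals.

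The chain oxidises NADH at complex I and succinate at complex II, passes the electrons through ubiquinone, complex III and cytochrome c to oxygen at complex IV, and uses the proton gradient built on the way to make ATP at complex V, the ATP synthase. Photoreceptors hold much of the mitochondrial mass of the retina, packed into the ellipsoid of their inner segments, and depend on it to run the ion pumps of the dark current. Most nuclear-encoded subunits are made in every cell type, but a few subunits of complex IV, the cytochrome c oxidase, come in a ubiquitous and a heart and skeletal muscle form: Cox6a1 and Cox6a2, Cox7a2 and Cox7a1, Cox8a and Cox8b. The muscle forms Cox7a1 and Cox8b are also known from brown fat.

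On each array 71.0% to 85.5% of gene probe spots were well above background in at least 1 of their channels, and none was marked as saturated. The labelled tissue was present: all 15 rod photoreceptor markers were well above background in both channels of every array. No array had the dyes exchanged, so that a dye effect on a gene and the treatment cannot be told apart in any comparison with PBS. The control channel differed little from array to array, and the labels do not say how many control pools it held; p-values therefore leave out the spread of the controls. In limma, 8650 of the 26153 genes (33.1%) had an adjusted p below 0.05 for PTC against PBS, as had 7237 (27.7%) for 10PTC against PBS, and counts among the chain's genes are to be read against these shares.

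The largest changes among the 87 genes were in the 3 muscle isoforms of complex IV, which fell at both doses while their ubiquitous partners had means between -0.29 and 0.0065. Of all genes tested, 16.2% fell at PTC and 13.3% at 10PTC. Cox6a2, the muscle form of the subunit at the interface of the oxidase dimer, had a normalised log2 intensity of 10.33, 10.43 and 9.20 in the PTC pools and 10.16, 10.71 and 10.36 in the 10PTC pools, against 13.37 to 13.51 in the PBS control of the 6 arrays. All 6 treated pools lay far below all 6 control readings. These readings hardly varied, and the labels do not say whether they came from 1 control pool or several. The log2 ratios of Cox6a2 were -3.16, -3.08 and -4.24 on the PTC arrays and -3.24, -2.65 and -3.05 on the 10PTC arrays. In limma the means were -3.49 ± 0.65 at PTC (adjusted p = 0.000327) and -2.98 ± 0.30 at 10PTC (adjusted p = 0.000787), which left 0.0888 and 0.127 times the control intensity.

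Cox7a1, the muscle form of the subunit that also helps to hold oxidase dimers together, had log2 ratios of -1.29, -1.74 and -1.77 on the PTC arrays and -1.57, -1.36 and -1.53 on the 10PTC arrays. Its mean was -1.60 ± 0.27 at PTC (adjusted p = 0.000292) and -1.49 ± 0.11 at 10PTC (adjusted p = 0.000579). Cox8b, the muscle form of the smallest oxidase subunit, had log2 ratios of -0.65, -1.42 and -1.29 on the PTC arrays and -1.81, -1.28 and -1.27 on the 10PTC arrays, with the lowest value on a 10PTC array and the one nearest 0 on a PTC array. Its mean was -1.12 ± 0.41 at PTC (adjusted p = 0.00327) and -1.46 ± 0.31 at 10PTC (adjusted p = 0.00202). In bulk RNA, fewer cells of a type and less of an RNA per cell cannot be told apart.

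Among the partners, Cox6a1 gave -0.045, -0.048 and -0.039 on the PTC arrays and -0.036, 0.028 and 0.028 on the 10PTC arrays, values close to 0 that did not pass at either dose (adjusted p = 0.415 and 0.918). Cox8a did not pass either, with -0.062 ± 0.072 at PTC (adjusted p = 0.401) and -0.076 ± 0.11 at 10PTC (adjusted p = 0.321). Cox7a2 was low on all 6 arrays, with -0.16, -0.22 and -0.084 on the PTC arrays and -0.38, -0.23 and -0.27 on the 10PTC arrays, and passed the limma test at both doses (adjusted p = 0.0454 and 0.00695), with the call kept in 5 of 20 alternatives at PTC and 15 of 19 at 10PTC. Under median centring in place of loess its PTC value turned to 0.065, that of Cox6a1 to 0.28 and those of Cox8a to 0.24 at PTC and 0.30 at 10PTC. Taken within each array, the muscle form stood below its partner in all 3 pairs on all 6 arrays. Cox6a2 minus Cox6a1 was -3.45 ± 0.65 log2 units at PTC and -2.99 ± 0.27 at 10PTC. Cox7a1 minus Cox7a2 was -1.44 ± 0.29 at PTC and -1.19 ± 0.066 at 10PTC. The difference was -1.06 ± 0.47 and -1.38 ± 0.23 for Cox8b minus Cox8a.

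**Figure D1:**
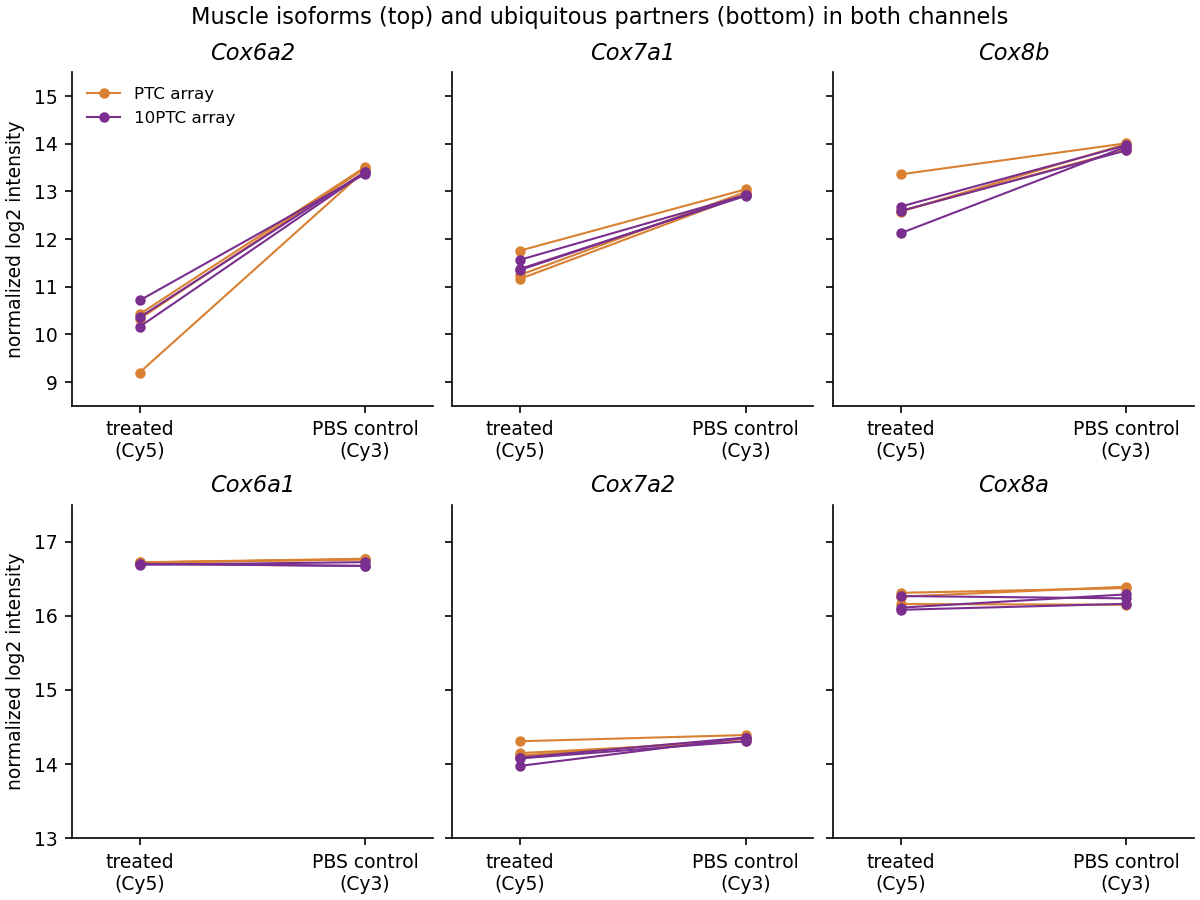
Normalised log2 intensity of the muscle isoforms (top) and their ubiquitous partners (bottom) in the treated channel (left of each panel) and the PBS control channel (right), with a line for each of the 6 arrays. The lines of Cox6a2, Cox7a1 and Cox8b run up steeply to the control on every array, whereas those of Cox6a1, Cox7a2 and Cox8a are nearly level; panels of different probes cannot be set against each other.

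The slides held PTC replicates 1 and 2, and PTC replicate 3 with all 10PTC arrays. With slide as a block the isoforms kept their direction: Cox6a2 came to -3.68 and -2.42, Cox7a1 to -1.64 and -1.36, and Cox8b to -1.16 and -1.33 at PTC and 10PTC, with limma adjusted p of at most 0.0433. Within slide 1 alone, Cox8b at PTC was -1.03 and no longer passed (limma adjusted p = 0.0892). There Cox6a2 was -3.12 and Cox7a1 -1.51. Within slide 2 the single PTC array, which a test can only assume to vary like the 10PTC arrays, gave -4.24, -1.77 and -1.29 for Cox6a2, Cox7a1 and Cox8b. Leaving out each array in turn left all 3 called at both doses.

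The probes that read the isoforms are shown because the isoform comparison rests on them. How well a probe matches the transcript of the partner was not analysed here. The stretches of 30 bases below are parts of the 60-base probes, and the capitals mark the longest run that a probe shares with the probe of its partner.
Cox6a2: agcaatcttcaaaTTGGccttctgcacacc
Cox6a1: ccacgaaaaccctTTGGatgctaagctcgt
Cox7a1: tgactctggggggcactgcctACTGCTtat
Cox7a2: tgatgtgtattaACTGCTgccaataaagca
Cox8b: cacatccctgagagatttcaTTAAACatgt
Cox8a: gtaacaataaagtctatTTAAACcttgaaa
The probes lie at chr7:135349160-135349219 (Cox6a2), chr5:115795726-115795785 (Cox6a1), chr7:30970337-30970948 (Cox7a1), chr9:79603215-79603274 (Cox7a2), chr7:148084852-148084911 (Cox8b) and chr19:7289652-7289708 (Cox8a) of mm9, per the design of the array, on the plus strand for Cox7a1 and on the minus strand for the rest. The Cox7a1 coordinates span 612 bases of the genome, more than the length of the probe; which exons or untranslated parts the probes fall in was not analysed here. The longest shared run was 4 bases for Cox6a2 and Cox6a1 and 6 bases for the other pairs, and the best alignment without gaps matched 17 to 20 of 60 bases.

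Other oxidase isoforms of restricted expression moved little. Cox4i2, known as the form of subunit 4 in lung that responds to low oxygen, had -0.24, -0.34 and -0.37 on the PTC arrays and -0.17, -0.13 and -0.095 on the 10PTC arrays, and passed at PTC (adjusted p = 0.00315) but not at 10PTC (adjusted p = 0.0642). Cox6b2, the testis form of subunit 6b, fell at both doses, by 0.30 and 0.21 log2 units (adjusted p = 0.00896 and 0.0327). Under median centring the 10PTC value of Cox6b2 was 0.0068. Cox7b2 lay near background, with Cy5 not well above background on any PTC array, and did not pass (adjusted p = 0.187 and 0.0683). Its PTC mean, 1.07-fold below the PBS control, therefore shows no fall. Ndufa4l2, a relative of the oxidase subunit Ndufa4 that is induced by low oxygen, was 1.25, -0.22 and 0.15 on the PTC arrays and 0.24, 0.18 and -0.018 on the 10PTC arrays; PTC replicate 1 stood apart, and no test passed (adjusted p = 0.234 and 0.696).

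Genes of skeletal muscle fell with the muscle isoforms. Of 20 listed muscle markers, 18 were lower at PTC and 19 at 10PTC and none was higher, with medians of -2.60 and -2.06 log2 units against -0.00076 and -0.00033 over all genes tested. The contractile and energy genes of fast muscle were among them: Acta1, skeletal muscle actin, was -2.36 ± 0.18 at PTC (adjusted p = 4.17e-05) and -2.08 ± 0.18 at 10PTC (adjusted p = 0.000122). Ckmt2, the mitochondrial creatine kinase of striated muscle, was -2.92 ± 0.43 at PTC (adjusted p = 0.000129) and -2.73 ± 0.17 at 10PTC (adjusted p = 0.000292). Mb, the oxygen store myoglobin, was -2.89 ± 0.33 at PTC (adjusted p = 0.000124) and -2.41 ± 0.29 at 10PTC (adjusted p = 0.000377). Ckm, muscle creatine kinase, was -2.14 ± 0.15 at PTC (adjusted p = 3.99e-05) and -1.80 ± 0.12 at 10PTC (adjusted p = 9.31e-05). The sum of all 20 markers had a log2 intensity of 14.21 to 14.67 in the PTC pools and 14.68 to 14.90 in the 10PTC pools, against 16.70 to 16.73 in the PBS control, and no marker was at 0: at least 19 of 20 stood well above background in each channel. The control channel, labelled retina, had this muscle signal on every array. Whether muscle tissue in the samples accounts for the isoform values was not tested.

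**Figure D2:**
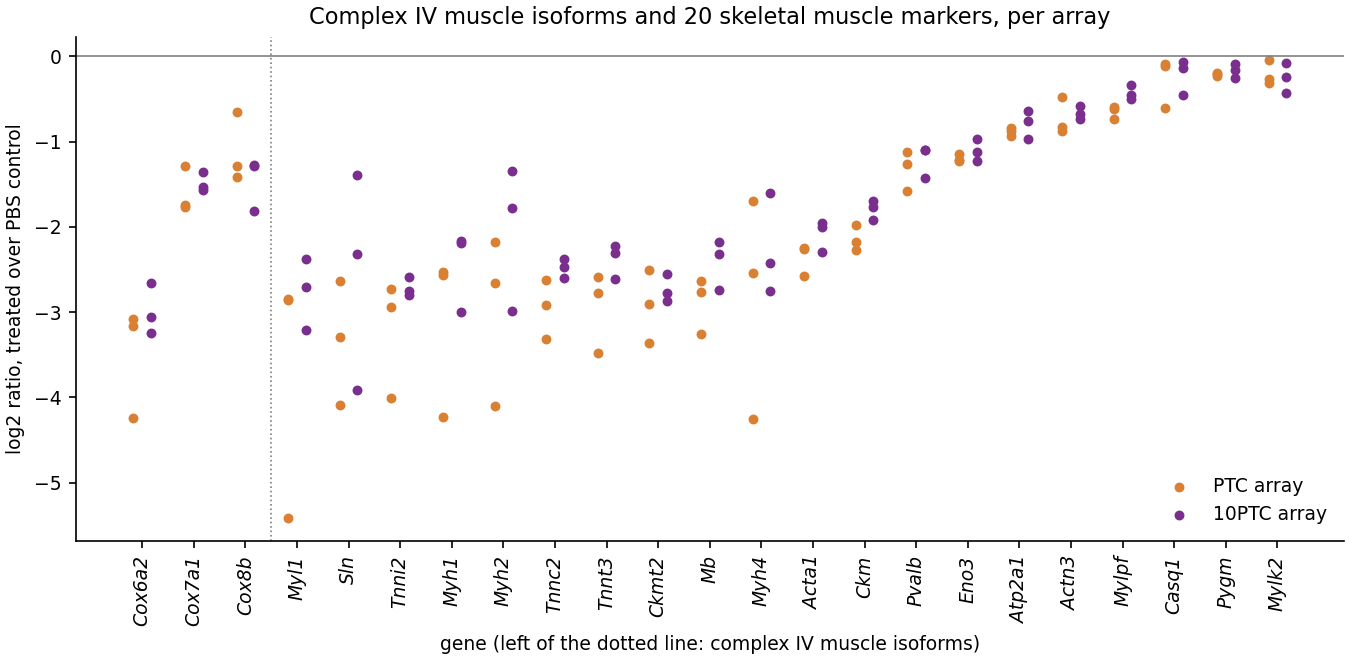
Log2 ratio of treated over PBS control on each array (points, PTC left and 10PTC right within a gene) for the 3 muscle isoforms of complex IV, left of the dotted line, and the 20 skeletal muscle markers, ordered by their PTC mean. Every point lies below 0, and PTC replicate 3 is often the lowest point.

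Of 14 measured fat markers, 9 were lower and 1 higher at PTC, and 8 lower and 1 higher at 10PTC, or 71.4% and 64.3% called against 33.1% and 27.7% of all genes tested, with medians of -0.34 and -0.29. At PTC the median was -0.92 in the authors' table and -0.91 with processed signals. Their summed log2 intensity was 12.25 to 12.40 in the PTC pools and 12.27 to 12.40 in the 10PTC pools, against 13.31 to 13.42 in the PBS control. Ucp1, the uncoupling protein that defines brown fat, was -0.42 ± 0.12 at PTC (adjusted p = 0.00229) and -0.48 ± 0.048 at 10PTC (adjusted p = 0.00218). Adipoq, the fat hormone adiponectin, was -1.88 ± 0.16 at PTC (adjusted p = 3.99e-05) and -1.84 ± 0.054 at 10PTC (adjusted p = 9.31e-05). The part of fat in the isoform values was not tested. Rod markers had medians of 0.016 and 0.13, with 4 higher and 1 lower of 15 at PTC and 5 higher and 0 lower at 10PTC; after median centring in place of loess the rod medians were 0.36 and 0.51.

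Across the chain, lower calls outnumbered higher ones at both doses, but the differences were small outside the muscle isoforms. At PTC 23 of 87 measured genes were lower, or 26.4% against 16.2% of all genes tested, and 7 were higher, or 8.05% against 16.8%. At 10PTC 32 were lower, or 36.8% against 13.3%, and 4 of 87 were higher, against 14.4% of all genes tested. The lower calls depended on single arrays and on the slide: at 10PTC there were 6 without 10PTC replicate 1, 8 without 10PTC replicate 3 and 5 with slide as a block, and at PTC there were 14 without PTC replicate 3 and 15 with slide as a block. The median log2 ratio was -0.053 at PTC and -0.11 at 10PTC. No gene other than the 3 muscle isoforms had a mean past 1.5-fold at either dose. On all 6 arrays 41 chain genes lay below 0 and 8 above. These were 47.1% and 9.2% of them, against 21.2% and 21.9% of all genes tested. Both doses were set against PBS control RNA.

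This direction holds for loess normalisation, for signals processed by the scanner software and for the authors' table. The last 2 are not independent of each other, because the authors' table correlated with the scanner software's log10 ratios at 0.983 to 1.00. The direction turned when arrays were only centred on their median. The chain's genes are bright: their median log2 intensity was 14.2, against 8.70 over all genes tested, and 49 of 87 lay at 14 or more, as 5.10% of all genes did. Median centring moved the median of these bright genes, 1333 in number, to 0.27 at PTC and 0.34 at 10PTC, against 0.017 and 0.011 after loess. The split of all calls moved with it, to 8210 higher and 4235 lower at PTC and 9642 higher and 5020 lower at 10PTC, against 4402 and 4248, and 3769 and 3468, after loess. The chain's median then came to 0.16 and 0.17, with 42 and 45 genes called higher. Set against the bright genes, the chain's median was lower under both scalings, by 0.070 and 0.12 after loess and 0.11 and 0.17 after median centring, at PTC and 10PTC. Directions of single ubiquitous genes below are those after loess. The bright ones can be read only relative to the other bright genes. For chain genes under a log2 intensity of 14, no reference genes of like intensity were taken.

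**Figure D3:**
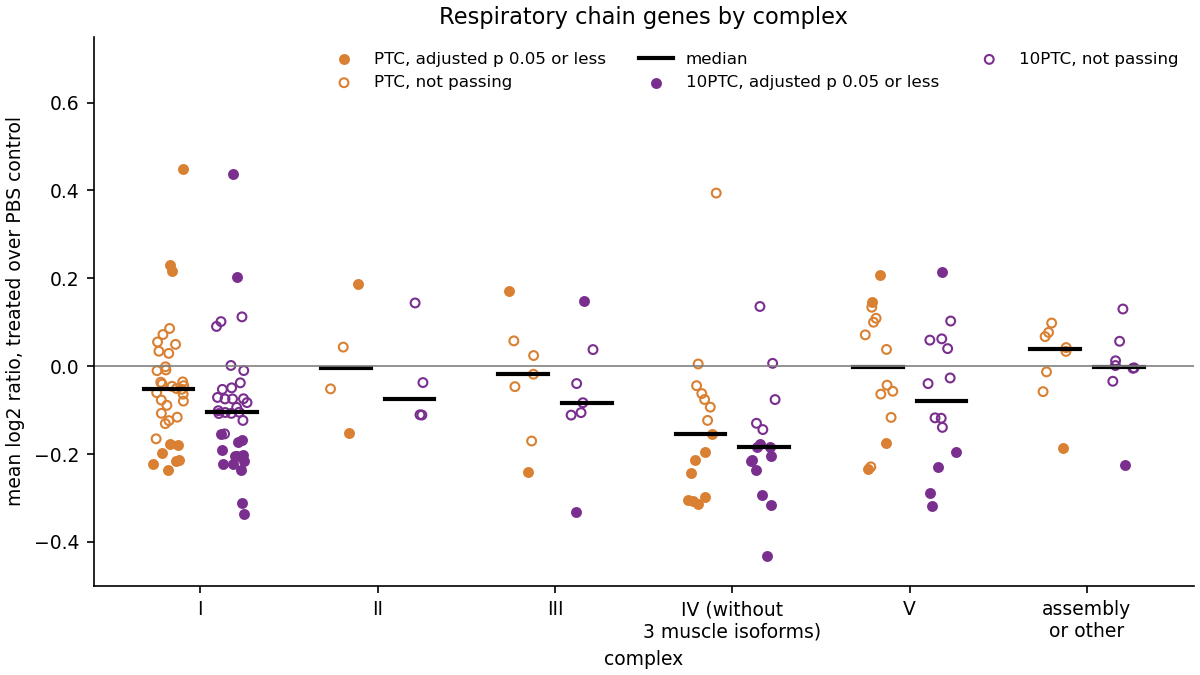
Mean log2 ratio of treated over PBS control of each respiratory chain gene by complex, after loess, at PTC (left in each pair) and 10PTC (right); the 3 muscle isoforms, whose means lie below -1, are not drawn. Filled points passed an adjusted p of 0.05 in limma and bars are medians of the genes drawn. Complex IV has no filled point above 0 at either dose, and Ndufa10 of complex I is the highest called gene; after median centring the medians of complexes I, II, III and V lie above 0.

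Complex IV, which passes electrons from cytochrome c to oxygen, had the largest share of lower calls among the 5 complexes. Of its 18 measured genes 11 were lower at PTC and 13 at 10PTC and none was higher. The lower calls came to 61.1% and 72.2%, against 16.2% and 13.3% of all genes tested. The 11 ubiquitous subunits alone had 6 lower calls at PTC and 9 at 10PTC, with medians of -0.16 and -0.20. After median centring none was called lower, 3 and 2 were called higher, and their medians were 0.035 and 0.11. These medians lay 0.24 and 0.23 below the bright genes, against 0.17 and 0.22 below them after loess. Of these subunits Cox6b1 and Cox7c were dimmer than the bright genes, with log2 intensities of 11.7 and 13.8.

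Cox4i1, the ubiquitous form of the regulatory subunit 4, gave -0.31, -0.31 and -0.30 on the PTC arrays and -0.27, -0.22 and -0.23 on the 10PTC arrays. This narrow range had means of -0.31 ± 0.0072 at PTC (adjusted p = 0.00228) and -0.24 ± 0.030 at 10PTC (adjusted p = 0.00651). Cox5a, which binds next to it in an early assembly step, gave -0.32, -0.29 and -0.29 on the PTC arrays and -0.18, -0.27 and -0.19 on the 10PTC arrays. Its means were -0.30 ± 0.018 at PTC (adjusted p = 0.00269) and -0.21 ± 0.047 at 10PTC (adjusted p = 0.0104). Both were below 0 on every array after loess. Median centring gave -0.038 and -0.052 at PTC and 0.10 and 0.11 at 10PTC, and no call. The Cox4i1 call was kept in 17 of 20 alternatives at PTC and 15 of 19 at 10PTC, as was that of Cox5a, and at 10PTC both were lost with slide as a block and without 10PTC replicate 1 or 3. Cox7c, a small membrane subunit, was -0.21, -0.31 and -0.12 on the PTC arrays and -0.45, -0.45 and -0.39 on the 10PTC arrays. It was called at both doses (adjusted p = 0.015 and 0.0022). The Cox7c call was kept in 13 of 20 alternatives at PTC and 18 of 19 at 10PTC. It was lost at both doses under median centring, and at PTC also with processed signals and the authors' table. A dimmer probe of Cox7c, at -0.068 and -0.19, was called at neither dose. The dimmest, with a log2 intensity of 7.24, was called at both, at -0.18 and -0.30. Ndufa4, once counted to complex I and now to the oxidase, was -0.24 ± 0.074 at PTC (adjusted p = 0.00859) and -0.32 ± 0.056 at 10PTC (adjusted p = 0.00486), with all 6 arrays between -0.19 and -0.38 after loess. Under median centring Ndufa4 was 0.0054 and 0.0085, not called, and with slide as a block its 10PTC call was lost too. Cox5b, a zinc-binding subunit on the matrix side, was called at both doses as well (-0.19 ± 0.067 and -0.18 ± 0.052; adjusted p = 0.0165 and 0.0244), kept in 13 of 20 alternatives at PTC and 11 of 19 at 10PTC. Cox6b1, Cox6c and Cox7b were called only at 10PTC, with -0.20, -0.18 and -0.18; the difference between the doses passed for none of them. Median centring turned these to 0.021, 0.17 and 0.12, and that of Cox5b to 0.12. Without 10PTC replicate 1 the complex had 4 lower calls at 10PTC and without 10PTC replicate 3 it had 5, and with slide as a block it had 10 at PTC and 4 at 10PTC.

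Complex I, the entry point of NADH electrons, had 36 genes, with medians of -0.052 at PTC and -0.11 at 10PTC. At PTC 3 were called higher and 7 lower, and at 10PTC 2 higher and 13 lower. Lower calls came to 19.4% and 36.1%, against 16.2% and 13.3% of all genes tested. Higher calls came to 8.33% and 5.56%, against 16.8% and 14.4%. After median centring 19 and 20 of the 36 were called higher and none lower. The lower calls lay almost wholly among the 29 accessory subunits, which surround the catalytic core: 7 at PTC and 12 at 10PTC. The 7 nuclear-encoded core subunits, which carry the flavin and the iron-sulfur clusters, had 2 higher and 0 lower at PTC and 1 higher and 1 lower, Ndufv2, at 10PTC. Whether the core and the accessory subunits differ was not tested.

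Ndufa10, an accessory subunit with a nucleoside kinase fold, was the highest called gene of the chain, at 0.29, 0.55 and 0.50 on the PTC arrays and 0.64, 0.23 and 0.45 on the 10PTC arrays. It rose at both doses, by 0.45 and 0.44 log2 units (adjusted p = 0.00788 and 0.0112). Its 10PTC call was lost with slide as a block and without 10PTC replicate 1 or 3. Ndufs8, which holds a pair of iron-sulfur clusters, was 0.22 ± 0.076 at PTC (adjusted p = 0.012) and 0.11 ± 0.047 at 10PTC (adjusted p = 0.109), and so passed at PTC only.

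Ndufb9 was the accessory gene with the lowest values, at -0.22, -0.26 and -0.23 on the PTC arrays and -0.43, -0.30 and -0.28 on the 10PTC arrays. Its means were -0.24 ± 0.019 at PTC (adjusted p = 0.00847) and -0.34 ± 0.083 at 10PTC (adjusted p = 0.00374). Ndufb4 came close to the threshold at PTC, with -0.16, -0.16 and -0.072 (adjusted p just above 0.05), and passed at 10PTC, with -0.36, -0.31 and -0.28 (adjusted p = 0.0038). Ndufa7 was -0.22 ± 0.056 at PTC (adjusted p = 0.0114) and -0.22 ± 0.074 at 10PTC (adjusted p = 0.0145). All 3 were below 0 on every array. Under median centring Ndufb9 was 0.0044 at PTC, Ndufb4 0.012 at 10PTC, and Ndufa7 0.031 and 0.10. The core subunits Ndufv1, which binds NADH and the flavin, and Ndufs1, the largest, did not pass after loess, with -0.12 and 0.050 at PTC and -0.083 and 0.090 at 10PTC.

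Complex II, the succinate dehydrogenase shared with the citric acid cycle, had 4 genes. At PTC 1 was called higher and 1 lower, or 50%, and at 10PTC 0, against 33.1% and 27.7% of all genes tested. After median centring 2 and 3 were called higher and none lower. Sdha, its flavoprotein, was above 0 on all arrays, at 0.12, 0.29 and 0.16 on the PTC arrays and 0.19, 0.061 and 0.18 on the 10PTC arrays, and passed at PTC but not at 10PTC (adjusted p = 0.0285 and 0.0739). The PTC call was kept in 11 of 20 alternatives for Sdha and in 8 of 20 for Sdhc. Sdhc, a membrane anchor, was -0.15 ± 0.033 at PTC (adjusted p = 0.0258) and -0.11 ± 0.035 at 10PTC (adjusted p = 0.0793). After median centring it was 0.018 and 0.13. Sdhb, the iron-sulfur subunit, and Sdhd, the other anchor, did not pass, with 0.043 and -0.052 at PTC and -0.037 and -0.11 at 10PTC.

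Complex III, which oxidises ubiquinol and reduces cytochrome c, had 1 higher and 1 lower call among 7 genes at each dose. That was 28.6% called, against 33.1% of all genes tested at PTC and 27.7% at 10PTC. After median centring 5 were called higher at each dose and none lower. Uqcrh, the hinge protein that helps cytochrome c to dock, was 0.14, 0.14 and 0.23 on the PTC arrays and 0.10, 0.21 and 0.13 on the 10PTC arrays, above 0 throughout, and passed at both doses (adjusted p = 0.0242 and 0.0437). That call was kept in 11 of 20 alternatives at PTC and 9 of 19 at 10PTC only, and at 10PTC it was lost with slide as a block. The gene listed as Uqcr, now Uqcr11, a small subunit, was -0.24 ± 0.10 at PTC (adjusted p = 0.0372) and -0.33 ± 0.17 at 10PTC (adjusted p = 0.0155). Its call was kept in 9 of 20 alternatives at PTC and 13 of 19 at 10PTC, and with slide as a block it was lost at both doses. The Rieske iron-sulfur protein Uqcrfs1 and the core proteins Uqcrc1 and Uqcrc2 did not pass, with 0.024, -0.17 and 0.058 at PTC and -0.040, -0.11 and 0.038 at 10PTC.

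Complex V, the ATP synthase, had 2 higher and 2 lower calls among 14 genes at PTC and 1 higher and 4 lower at 10PTC. These came to 28.6% and 35.7% of its genes, against 33.1% and 27.7% of all genes tested. After median centring 9 and 10 were called higher and none lower. The catalytic beta subunit Atp5b was -0.052, 0.23 and 0.12 on the PTC arrays and 0.28, 0.18 and 0.18 on the 10PTC arrays, and passed at 10PTC only (adjusted p = 0.231 and 0.0354), with the call kept in 10 of 19 alternatives. Atp5g3, which codes for the subunit c of the rotor ring, was above 0 on all 6 arrays, at 0.16, 0.28 and 0.19 on the PTC arrays and 0.052, 0.14 and 0.12 on the 10PTC arrays, and rose at PTC (adjusted p = 0.012 and 0.121). Atp5g2, another gene for the same subunit, was 0.15 ± 0.017 at PTC (adjusted p = 0.0353) and 0.062 ± 0.063 at 10PTC (adjusted p = 0.303), with the PTC call kept in 8 of 20 alternatives.

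The lower calls in complex V lay outside the catalytic alpha and beta subunits. Atp5k, the subunit e that joins synthase dimers, was -0.17 ± 0.032 at PTC (adjusted p = 0.0245) and -0.29 ± 0.079 at 10PTC (adjusted p = 0.00594), with all 6 arrays below 0, and its call was kept in 8 of 20 alternatives at PTC and 15 of 19 at 10PTC. Atp5d, the delta subunit of the central stalk, was -0.23 ± 0.048 at PTC (adjusted p = 0.0156) and -0.12 ± 0.12 at 10PTC (adjusted p = 0.14). Atp5o, which ties the stator to the head, was -0.12 ± 0.029 at PTC (adjusted p = 0.0883) and -0.23 ± 0.083 at 10PTC (adjusted p = 0.0125). At 10PTC Atp5e, the epsilon subunit, and Atp5l, the subunit g, were called too, with -0.32 ± 0.20 and -0.19 ± 0.085 (adjusted p = 0.0205 and 0.036). Both calls were lost with slide as a block and with processed signals, and median centring turned the values to 0.0018 and 0.13. Under median centring Atp5k was 0.078 and 0.037, and at 10PTC Atp5d was 0.14 and Atp5o 0.018.

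**Figure D4:**
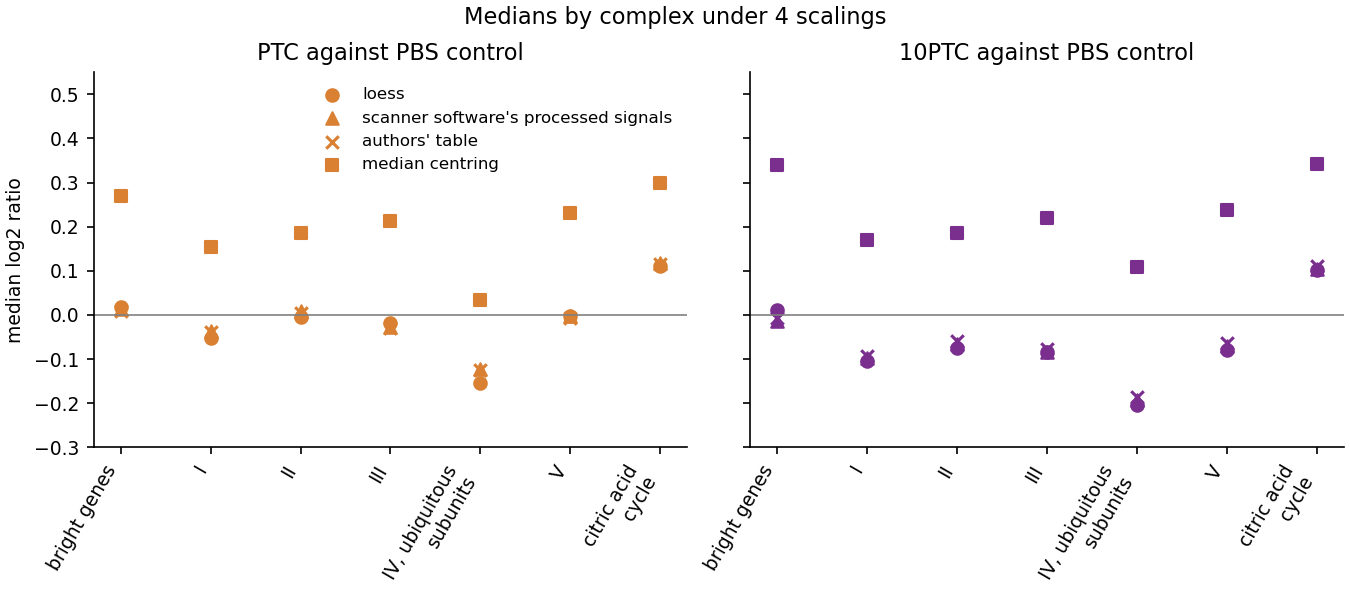
Median log2 ratio of treated over PBS control for bright genes (mean log2 intensity of 14 or more), for complexes I to III, the ubiquitous subunits of complex IV, complex V and the citric acid cycle, at PTC (left panel) and 10PTC (right panel), under 4 scalings (symbols). Median centring lifts every group, and under each scaling the ubiquitous subunits of complex IV are the lowest group and the citric acid cycle the highest.

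The 8 genes that fit the naming rule without being subunits stayed near the control, with medians of 0.038 and -0.0011. Cox7a2l, which joins complexes III and IV into supercomplexes, was the exception, with -0.19 ± 0.083 at PTC (adjusted p = 0.0232) and -0.22 ± 0.052 at 10PTC (adjusted p = 0.0153). Median centring gave 0.070 and 0.10. Its call was kept in 12 of 20 alternatives at PTC and 14 of 19 at 10PTC, and was lost at both doses with slide as a block and with the mean of its probes. A second probe of Cox7a2l, at -0.13 and -0.18, was called at 10PTC only, and a dimmer one, at 0.13 and 0.056, at neither dose. The complex I assembly factors Ndufaf1 to Ndufaf4 did not pass, with means between -0.034 and 0.098. The same holds for Atp5s (now Dmac2l), Atp5sl (now Dmac2) and Cox4nb (now Emc8), which belongs to a membrane complex of the endoplasmic reticulum, with means between -0.058 and 0.13.

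The doses were compared directly, 10PTC against PTC, with the arrays of both in 1 limma model. None of the 87 genes and none of 26153 genes tested (0%) had an adjusted p below 0.05; at an unadjusted p under 0.05 there were 5 chain genes, or 5.75%, and 2133 genes in all, or 8.16%. The 3 chain genes of smallest p were Cox7c, which was lower at 10PTC by 0.22 ± 0.068 log2 units (SE), Ndufb4, lower by 0.18 ± 0.060, and Cox4i2, higher by 0.18 ± 0.062; their adjusted p were 0.569, 0.574 and 0.575. The 10PTC minus PTC differences of the muscle isoforms were 0.51 ± 0.31 (SE) for Cox6a2, 0.11 ± 0.14 (SE) for Cox7a1 and -0.34 ± 0.22 (SE) for Cox8b, of mixed sign and with adjusted p of at least 0.691.

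Several probes were measured for 23 of the genes, and the brightest probe represents each. A second probe of Atp5k gave -0.26 and -0.38 at PTC and 10PTC, and that of Ndufb4 -0.11 and -0.36, near the probes used. Atp5g2 differed: its dimmer probe was -0.11 and -0.22, with the 10PTC value called (limma adjusted p = 0.0165), where the brighter probe was positive. A second probe of Uqcrq was called lower at both doses (-0.19 and -0.21), as was one of Atp5j2 (-0.15 and -0.22). One of Cox8a was called lower at PTC (-0.20), and at 10PTC one of Atp5c1 (-0.21) and one of Ndufa5 (-0.20). One of Atp5f1 was called higher at PTC only (0.15). One of Sdhb was called higher at PTC (0.18), and its 10PTC value of 0.079 did not pass. The brighter probes of these genes passed at neither dose.

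The subunits encoded in the mitochondrial genome, which belong to complexes I, III, IV and V, were measured for 12 of 13 genes. At PTC 1 was higher and 1 lower, with a median of -0.068, and at 10PTC 1 was higher and 3 lower, with a median of -0.14. Called genes came to 16.7% at PTC and 33.3% at 10PTC, against 33.1% and 27.7% of all genes tested. ND2 fell at both doses, with -0.37 ± 0.15 at PTC (adjusted p = 0.00607) and -0.42 ± 0.083 at 10PTC (adjusted p = 0.00547). ND4, of the same complex, rose at both, with 0.30 ± 0.18 at PTC (adjusted p = 0.0281) and 0.28 ± 0.16 at 10PTC (adjusted p = 0.0416). ND3 and ND6 were lower at 10PTC (-0.44 and -0.24; adjusted p = 0.00359 and 0.0164). COX1, the catalytic subunit of the oxidase, varied widely, at -0.50, -0.032 and 0.023 on the PTC arrays and 0.11, -1.32 and -1.42 on the 10PTC arrays; 10PTC replicates 2 and 3 stood far below the other arrays, and no test passed (adjusted p = 0.658 and 0.0506); COX2 and COX3 stayed between -0.12 and 0.0055. After median centring the medians were 0.24 and 0.17 and no gene was called lower, ND2 included.

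Factors that assemble the complexes or serve their transcripts had 9 higher and 5 lower of 39 at PTC and 7 higher and 6 lower at 10PTC, or 35.9% and 33.3% called, near the 33.1% and 27.7% of all genes tested. After median centring these counts were 16 and 3, and 21 and 4. Uqcc2, needed to build complex III, fell most among them, with -0.57 ± 0.057 at PTC (adjusted p = 0.000875) and -0.55 ± 0.10 at 10PTC (adjusted p = 0.00136). Sco2, which delivers copper to the oxidase, fell by 0.33 and 0.31 (adjusted p = 0.00403 and 0.00625). Coa5, an oxidase assembly factor, rose most, with 0.63 ± 0.093 at PTC (adjusted p = 0.00104) and 0.51 ± 0.13 at 10PTC (adjusted p = 0.00269). Lrpprc, which stabilises mitochondrial messenger RNAs, was 0.42 ± 0.15 at PTC (adjusted p = 0.00326) and 0.37 ± 0.052 at 10PTC (adjusted p = 0.00674).

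Among 18 electron carriers and enzymes of ubiquinone synthesis, 2 higher and 3 lower were called at PTC and 2 higher and 4 lower at 10PTC (27.8% and 33.3% called, near the share of all genes), against 6 and 2, and 9 and 2, after median centring. Coq8a, an atypical kinase of ubiquinone synthesis, was -0.33 ± 0.098 at PTC (adjusted p = 0.00364) and -0.41 ± 0.038 at 10PTC (adjusted p = 0.00268). Etfdh, which feeds electrons from fat oxidation to ubiquinone, was 0.32 ± 0.085 at PTC (adjusted p = 0.00325) and 0.29 ± 0.0095 at 10PTC (adjusted p = 0.00594). Cytochrome c, Cycs, was called lower at 10PTC only (-0.20 ± 0.083; adjusted p = 0.0225), and Cyc1, the cytochrome of complex III, at PTC only (-0.16 ± 0.060; adjusted p = 0.0373).

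The citric acid cycle, which supplies the chain with NADH and succinate, had 5 higher and 3 lower of 16 at PTC and 6 higher and 2 lower at 10PTC, a larger share called than the 33.1% and 27.7% of all genes tested, with medians of 0.11 and 0.10; after median centring the medians were 0.30 and 0.34 with 12 and 13 of 16 called higher and none lower. Idh3a, the catalytic subunit of isocitrate dehydrogenase, was 0.22 ± 0.11 at PTC (adjusted p = 0.0324) and 0.36 ± 0.12 at 10PTC (adjusted p = 0.0079). Sucla2, of succinyl-CoA ligase, was 0.38 ± 0.039 at PTC (adjusted p = 0.00344) and 0.26 ± 0.13 at 10PTC (adjusted p = 0.014). Ogdh, of the oxoglutarate dehydrogenase complex, was -0.24 ± 0.084 at PTC (adjusted p = 0.0156) and -0.20 ± 0.10 at 10PTC (adjusted p = 0.0342). Of 18 transcriptional regulators, 4 higher and 1 lower were called at PTC and 3 higher and 1 lower at 10PTC (27.8% and 22.2% called, no more than all genes), against 8 and 1, and 13 and 0, after median centring. Esrra, the estrogen-related receptor alpha that drives many chain genes, fell, with -0.41 ± 0.039 at PTC (adjusted p = 0.00154) and -0.23 ± 0.076 at 10PTC (adjusted p = 0.0118). Ppargc1a, Nrf1 and Tfam, the coactivator and factors best known for this programme, did not pass, with -0.051, 0.012 and 0.021 at PTC and -0.041, 0.11 and 0.11 at 10PTC.

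Promoters are shown for the isoform pairs, whose members moved differently, so that the letters upstream of the muscle and the ubiquitous forms can be compared. Each window of 155 bases ends 30 bases after the start of the gene and comes from RefSeq on GRCm38.p6, 5' to 3' on the strand of the gene, and capitals mark matches to the motifs searched.
Cox7a1: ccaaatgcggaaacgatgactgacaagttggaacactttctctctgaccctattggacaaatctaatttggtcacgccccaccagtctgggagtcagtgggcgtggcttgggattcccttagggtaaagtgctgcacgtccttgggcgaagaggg
Cox7a2: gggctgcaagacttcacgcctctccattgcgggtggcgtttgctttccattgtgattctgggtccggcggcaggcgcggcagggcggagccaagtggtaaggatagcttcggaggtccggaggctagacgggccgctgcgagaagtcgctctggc
Cox8b: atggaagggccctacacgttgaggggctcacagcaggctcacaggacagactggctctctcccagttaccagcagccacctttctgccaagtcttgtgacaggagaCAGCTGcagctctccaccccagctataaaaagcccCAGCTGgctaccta
Cox8a: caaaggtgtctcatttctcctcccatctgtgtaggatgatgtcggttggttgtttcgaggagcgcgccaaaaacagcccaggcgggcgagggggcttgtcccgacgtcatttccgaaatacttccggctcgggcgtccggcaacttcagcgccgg
Cox6a1: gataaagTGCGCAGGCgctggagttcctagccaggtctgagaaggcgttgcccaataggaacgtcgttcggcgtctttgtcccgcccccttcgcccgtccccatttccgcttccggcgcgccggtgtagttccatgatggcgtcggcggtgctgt
These windows lie at chr7:30184046-30184200 (plus strand, Cox7a1), chr9:79759824-79759978 (Cox7a2), chr7:140900417-140900571 (Cox8b), chr19:7217587-7217741 (Cox8a) and chr5:115348929-115349083 (Cox6a1), the last 4 on the minus strand; Cox6a2 is named only. In 250 bases before to 50 after the start, on both strands, CAGCTG, the E-box letters of myogenic factors, occurred at 2 places in the Cox8b window, starting at base -19 before the start of the gene and at base 17 of it, and in none of the other 4 windows. TGCGCANGC, the letters of the NRF1 motif, occurred once in Cox6a1, from base -118. The letters TCAAGGTCA of estrogen-related receptors and CTATTTATA of MEF2 occurred in none of the 5. The matches did not overlap.

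Over the 72 chain genes with a promoter in the RefSeq table, TGCGCANGC was present in 13, or 18.1%, against 4.70% of 27025 genes, and TCAAGGTCA in 2, Atp5g3 and Sdhd, or 2.78%, against 0.466%. CAGCTG was present in 6, or 8.33%, against 18.3%, and CTATTTATA in 0, against 0.492%. The 13 with TGCGCANGC came from every complex: 6 of 32 genes of complex I, 2 of 3 of complex II, 1 of 4 of complex III, 1 of 13 of complex IV and 2 of 13 of complex V, with the assembly factor Ndufaf4 besides. These are matches of letters and were not set against the expression values.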

How the data were processed

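RNA of pooled mouse retinas was hybridised to 6 Agilent 2-colour arrays, 3 for each dose of TiO2 nanoparticles (treated in Cy5, PBS control in Cy3). Per the file headers and the submitters' processing notes, the authors scanned the arrays and used Agilent Feature Extraction, which wrote mean spot and background intensities, processed intensities and the log10 ratio of red over green. The deposited table of log2 ratios held the authors' normalised values of the same arrays. It correlated with the log10 ratios at 0.983 to 1.00.

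Groups came from the labels. Here mean intensities were background-corrected with normexp (offset 50) and loess-normalised within each array in limma 3.58.1 (R 4.3.3), without control and outlier spots. A probe was kept if 3 or more arrays had it well above background in Cy3 or Cy5; 32511 were kept and 6918 left out, and the brightest probe stood for a gene. Genes were named through the RefSeq table of GRCm38.p6. A limma model with 1 coefficient per dose over all 6 arrays gave p-values, adjusted by Benjamini-Hochberg over 26153 genes, with 0.05 as threshold. The fit was tested on simulated data. The p-values measure the spread between arrays, and 3 arrays per dose limit the precision.

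The members and lists were chosen with earlier results of these data known. Named genes are the oxidase isoforms, complex II, and per complex and dose the 2 genes called in each direction with smallest p. The 3 of smallest p between the doses are named too, as are up to 2 called genes of each further list and dose. Genes of which another probe was called with the sign opposite to the probe used are also named. Atp5j2, Atp5c1, Ndufa5 and Atp5f1 are named only for a called second probe, and their values under the alternatives are not given. Others were named for their role, some after their values were seen. A gene that the rule takes in is not reported here. Alternatives changed the signals, background, normalisation, filter, outliers, probe choice, base composition, samples, replicate and slide; the split by intensity and the alternatives for 25 genes named for their role were chosen after seeing the data. The protein sequences of the isoforms were not analysed here.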

Additional observations from a re-analysis of the deposited data

How the results depend on the processing

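Counts of chain genes are given as higher and lower. The muscle isoforms stayed lower under every alternative run and passed in each, except Cox8b at PTC within slide 1; leaving out 1 array gave Cox6a2 minus Cox6a1 of -3.66 to -3.07 at PTC and -3.14 to -2.88 at 10PTC. Other calls moved, and the cause was not tested. With processed signals PTC had 4 and 12, and 10PTC 1 and 13 of 4238 calls, 8 lower in complex IV (median -0.24). The authors' table gave 4 and 15, and at 10PTC 1 and 17 of 4584, 8 in complex IV (-0.23). Median centring gave 42 and 5 at PTC, 3 and 5 in complex IV, with medians of 0.16 for the chain, 0.15 for complex I, 0.21 for III and -0.0017 for IV; at 10PTC it gave 45 and 4 of 14662 calls, 2 and 4 in complex IV, with medians of 0.17 for the chain, 0.17 for I, 0.19 for II, 0.22 for III, 0.056 for IV and 0.24 for V. Of all called chain genes, 12 of 30 at PTC and 25 of 36 at 10PTC changed sign under at least 1 alternative. Among the genes the text names median centring turned Atp5k to 0.078, Cox5b to 0.035, Cox6a1 to 0.28, Cox7a2 to 0.065, Cox7a2l to 0.070, Cox8a to 0.24, Ndufa4 to 0.0054, Ndufa7 to 0.031, Ndufb9 to 0.0044, Ndufv1 to 0.14, Ndufv2 to 0.17, Sdhc to 0.018 and Uqcrq to 0.25 at PTC and Atp5d to 0.14, Atp5e to 0.0018, Atp5k to 0.037, Atp5l to 0.13, Atp5o to 0.018, Atp5sl to 0.23, Cox4i1 to 0.10, Cox5a to 0.11, Cox5b to 0.12, Cox6b1 to 0.021, Cox6b2 to 0.0068, Cox6c to 0.17, Cox7a2l to 0.10, Cox7b to 0.12, Cox8a to 0.30, Ndufa4 to 0.0085, Ndufa7 to 0.10, Ndufaf4 to 0.22, Ndufb4 to 0.012, Ndufv1 to 0.24, Ndufv2 to 0.13, Sdhb to 0.24, Sdhc to 0.13, Uqcrfs1 to 0.22 and Uqcrq to 0.23 at 10PTC. Without a filter 10PTC had 2 higher. With base composition removed, Cox7a1 minus Cox7a2 was -1.09 at 10PTC. PTC fitted alone gave 1 and 12 of 4605.

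The replicate numbers paired no samples (correlations of -0.272, 0.146 and 0.198); as a replicate block they left 3 higher at PTC, and 1 and 20 of 4817 at 10PTC. Slide as a block gave 4 and 15 at PTC, and 0 and 5 of 1008 at 10PTC, 4 in complex IV (-0.25), with pair differences of -2.42 for Cox6a2 and -1.01 for Cox7a1. Within slide 1 PTC had 0 and 2 of 283, both in complex IV. Within slide 2, where the lone PTC array borrows its spread from the 10PTC arrays, it had 0 and 4 of 1709, 4 in complex IV (-0.13), with -4.20 for the Cox6a2 pair. Leaving out each array gave 2 to 7 higher and 14 to 22 lower of 5002 to 7864 at PTC, lowest without PTC replicate 3. At 10PTC it gave 0 to 4 and 6 to 33 of 1354 to 9124, with 4 to 14 in complex IV (-0.21 to -0.19): without 10PTC replicate 1, 0 and 6 of 1354; without replicate 2, 1 and 21; without replicate 3, 0 and 8 of 1571. Between the doses 0 to 1 genes passed, 1 without PTC replicate 3. Of the values of the named genes over all alternatives and comparisons, 2687 kept direction and call, 259 lost the call, 34 gained it and 38 turned their sign where either value was called.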
